A study of Mus musculus with 2 samples.

Results

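The 8 genes described here, Cdx1, Cdx2, Gata4, Gata5, Gata6, Hnf4a, Klf4 and Klf5, encode transcription factors that set the identity of the intestinal epithelium and the regions of the gut. They were chosen by name, and every probeset annotated with 1 of these symbols was taken, which gave 19 of the 45101 probesets of the value table. The mice were wildtype males of the inbred strain C57BL/6J, aged 4 months, and ate for 4 weeks a semisynthetic diet in which fat made up 20% of the weight. In the EPA&DHA group, 44% of the lipids came from a marine concentrate with 6% EPA and 51% DHA, and in the control group flaxseed oil, rich in the plant n-3 fatty acid ALA, was the only lipid source. Each diet was fed to 12 mice, and RNA that passed quality control was pooled from 11 EPA&DHA mice and from 10 control mice. Each pool was hybridized to 1 Affymetrix array, on which a probeset is a group of short probes that reads 1 transcript region. As each diet had 1 array, the spread between mice is unknown and no statistical test was possible. The labels describe complete small intestine, whereas the methods describe scraped epithelial cells taken from below the stomach to the caecum. RNA of all its regions was mixed, so a shift along the length of the gut was not measured directly.

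CDX2 and its relative CDX1 are homeodomain proteins that switch on intestinal genes and keep stomach genes off. GATA4, GATA5 and GATA6 are zinc finger proteins, and in mice GATA4 marks the duodenum and jejunum and holds ileal genes down there. HNF4A is a nuclear receptor that binds fatty acids and drives genes of absorptive cells, while the Krüppel-like factors KLF4 and KLF5 mark differentiated and dividing epithelial cells. The question asked of each gene was whether its signal differed between EPA&DHA and control diet.

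None of the 8 genes was 1.5-fold apart between the diets. Among all 11756 genes measured, 14.3% were at least 1.5-fold apart. A gene was given the value of its brightest probeset, and these log2 ratios of EPA&DHA over control ran from -0.32 for Gata4 to 0.16 for Gata6. Over the 8 genes 3 were above 0 and 5 below, with a median of -0.15 beside a median of -0.05 over all genes. Of the 19 probesets, 18 had a geometric mean signal over both arrays of at least 50, the level set for use, and the remaining one belonged to Klf5. None of these 18 was 1.5-fold apart, as against 17.1% of all 24461 probesets kept. Within the range of mean signals that the 18 cover, 7.15% of 10572 probesets were 1.5-fold apart.

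As a measure of scatter, the robust SD of the log2 ratios of the 500 probesets nearest in signal was taken, called the local SD. For these genes it lay between 0.21 and 0.30. Of the 18 probesets, 11 stood within 1 local SD of the local median and 7 beyond it, where 32.8% of all probesets kept lay beyond. Beyond 2 local SDs was 1 of the 18, a probeset of Hnf4a, as against 7.54% of all. The local SD includes every difference between the pools and is not a replicate error.

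**Figure D1:**
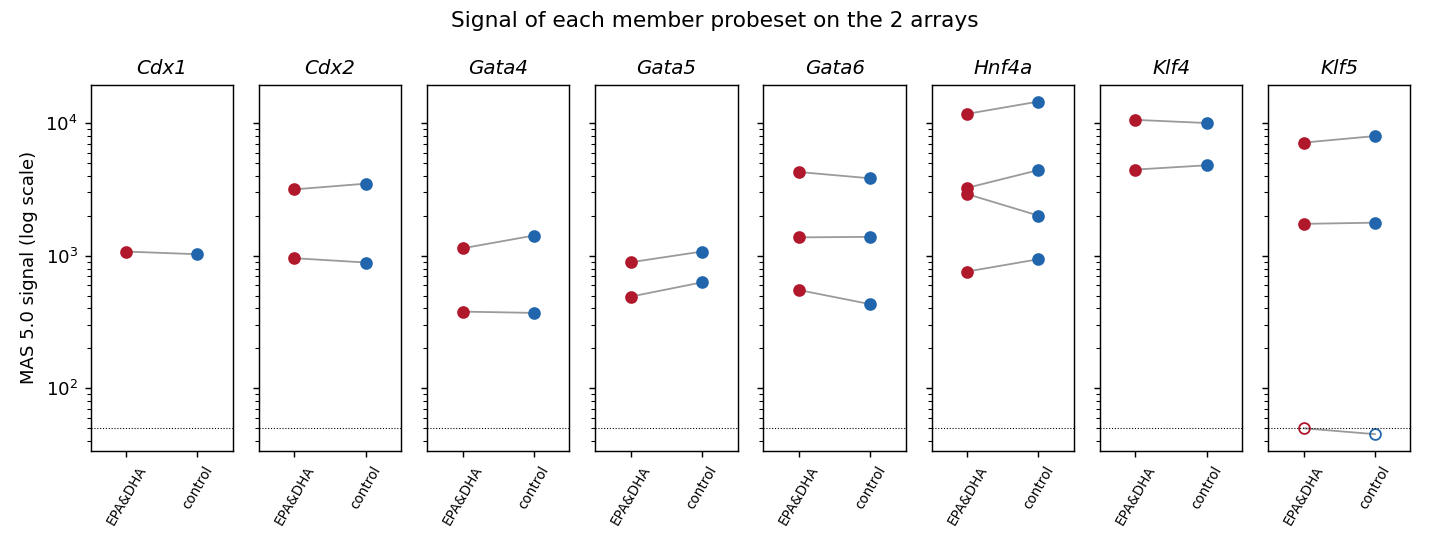
MAS 5.0 signal (log scale) of each of the 19 probesets on the EPA&DHA array (red, left) and the control array (blue, right), with a grey line joining the values of a probeset; open circles mark the Klf5 probeset that was not kept, and the dotted line is a signal of 50. The lines are close to level, and those of Hnf4a run in both directions.

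Hnf4a was the member with the widest spread between its probesets, and they went in opposite directions. The brightest, 1427001_s_at, had a signal of 11778 on EPA&DHA and 14577 on control, 1.24-fold lower. Probeset 1421983_s_at gave 3253 on EPA&DHA and 4429 on control, 1.36-fold lower. Probeset 1450447_at gave 759.6 on EPA&DHA and 940.4 on control, again 1.24-fold lower. These 3 probesets therefore shared a direction, with log2 ratios of -0.31, -0.44 and -0.31. The fourth, 1427000_at, gave 2916 on EPA&DHA and 2007 on control, 1.45-fold higher. Its log2 ratio of 0.54 lay 2.40 local SDs above the local median, and 1421983_s_at lay 1.91 local SDs below it. The probeset that was higher and the brightest of the lower ones are annotated with the same sequence record. Which transcripts each of them reads could not be worked out here.

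The distance between the highest and the lowest log2 ratio of Hnf4a was 0.98. Among 568 genes with 4 kept probesets, the median distance was 0.65 and 27.1% had one at least as wide as that of Hnf4a. Among the 76 of these genes whose probesets all had a mean signal of at least 500, the median was 0.44 and 13.2% were at least as wide. Probesets of 1 gene on both sides of 0 were common, in 64.5% of those 76 genes. The sign of Hnf4a depends on the probeset chosen. The value was -0.31 on the brightest probeset and -0.13 as the mean of all 4. It was 0.54 when probesets with the suffix _s_at, whose probes may be shared between transcripts, were set aside. The probesets then left, 1427000_at at 0.54 and 1450447_at at -0.31, still disagreed in sign, and the brighter gave the value.

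Hnf4a is transcribed from 2 start sites, which lie 40298 bases apart in the RefSeq table for GRCm38.p6 and yield HNF4A proteins with different N-terminal ends. The annotation used here does not tell which start site a probeset reads. The sequences before both sites are shown because the probesets of this gene were the only ones among the members to give opposing values of this size. Each run covers bases -250 to -47 from its start site on the plus strand, with matches to 5 short motifs in capitals. The runs stop there because the gene record of Hnf4a begins at 163506811, directly after the upstream run. Positions are counted from start sites at 163506857 and 163547155, so the upstream ones differ from a count by the gene record.
Upstream start site, chr2:163506607-163506810: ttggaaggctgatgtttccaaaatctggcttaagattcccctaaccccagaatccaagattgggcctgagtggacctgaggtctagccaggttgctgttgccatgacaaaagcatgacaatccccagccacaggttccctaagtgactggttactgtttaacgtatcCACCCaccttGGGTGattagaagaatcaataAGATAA
Downstream start site, chr2:163546905-163547108: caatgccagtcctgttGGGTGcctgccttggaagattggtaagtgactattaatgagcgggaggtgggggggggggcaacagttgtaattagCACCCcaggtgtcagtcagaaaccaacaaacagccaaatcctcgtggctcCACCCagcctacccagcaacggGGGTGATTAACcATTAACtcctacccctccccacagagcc
The motifs were AGATAA for GATA factors, TTTATG for CDX factors, CACCC for Krüppel-like factors, CAAAGTCCA for HNF4 and GTTAAT for HNF1, a homeodomain factor of liver and gut, each searched on both strands. AGATAA was found 1 time, before the upstream site, from -52 to -47, and 8.57% of the 32851 windows of this length in the table hold it. GTTAAT was found 2 times, before the downstream site and on the minus strand, from -81 to -76 and from -74 to -69, and 5.43% of windows hold it. CACCC was found 2 times before the upstream and 4 times before the downstream site, but 45.1% of windows hold it. The letters TTTATG and CAAAGTCCA, held by 8.96% and 0.304% of windows, were not in these runs. No match overlapped one of another motif, although a CACCC match on the minus strand directly precedes the first GTTAAT match. A match describes the letters and does not show that a factor binds there. Only exact letters were searched, so a run without a match may still hold a variant of the motif. The 2 runs were therefore not compared for sites of a factor.

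Both homeobox genes were close to even between the diets. Cdx1, which is strongest in crypts, was read by the single probeset 1449582_at, with 1074 on EPA&DHA and 1026 on control, a log2 ratio of 0.07. Cdx2, which specifies intestinal against gastric epithelium, had 3167 on EPA&DHA and 3497 on control on its brighter probeset, 1422075_at, a log2 ratio of -0.14. Its other probeset, 1422074_at, had 957.4 on EPA&DHA and 888.3 on control, a log2 ratio of 0.11. The values of Cdx2 thus lay on either side of 0, each about 0.50 local SDs from the local median.

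The GATA genes were not alike in direction, although each stayed under 1.5-fold. Gata5, found in differentiated epithelium, was lower on EPA&DHA on both of its probesets. Probeset 1450126_at had 892.2 on EPA&DHA and 1075 on control, a log2 ratio of -0.27, and 1450125_at had 491.1 on EPA&DHA and 629.1 on control, a log2 ratio of -0.36. Gata4, the factor of the proximal gut, had 1137 on EPA&DHA and 1419 on control on 1418863_at, a log2 ratio of -0.32. On its other probeset, 1418864_at, Gata4 had 378.2 on EPA&DHA and 369.9 on control, a log2 ratio of 0.03. The lower value of Gata4 therefore rests on 1 of 2 probesets.
Gata6, which is found along the whole intestine, had 4282 on EPA&DHA and 3839 on control on its brightest probeset, 1425464_at, a log2 ratio of 0.16. Probeset 1443081_at had 550.2 on EPA&DHA and 430.4 on control, a log2 ratio of 0.35 with a local SD of 0.30. The remaining one, 1425463_at, had 1375 on EPA&DHA and 1387 on control, a log2 ratio of -0.01 that passed to just above 0 with 3 other scalings. No probeset of a GATA gene lay more than 1.23 local SDs from the local median.

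Klf4 and Klf5 had signals near equal on both diets. Klf4, which takes part in goblet cell formation and in the arrest of the cell cycle, had 10606 on EPA&DHA and 10036 on control on 1417394_at, a log2 ratio of 0.08. On 1417395_at it had 4469 on EPA&DHA and 4814 on control, a log2 ratio of -0.11. Klf5, which promotes division of crypt cells, had log2 ratios just below 0 on both kept probesets. Probeset 1451021_a_at had 7142 on EPA&DHA and 8000 on control, a log2 ratio of -0.16. Probeset 1451739_at had 1739 on EPA&DHA and 1775 on control, a log2 ratio of -0.03, or 0.01 after centring on the median. The third, 1430255_at, was dim on both arrays, with 49.76 on EPA&DHA and 44.93 on control, and was not used further.

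**Figure D2:**
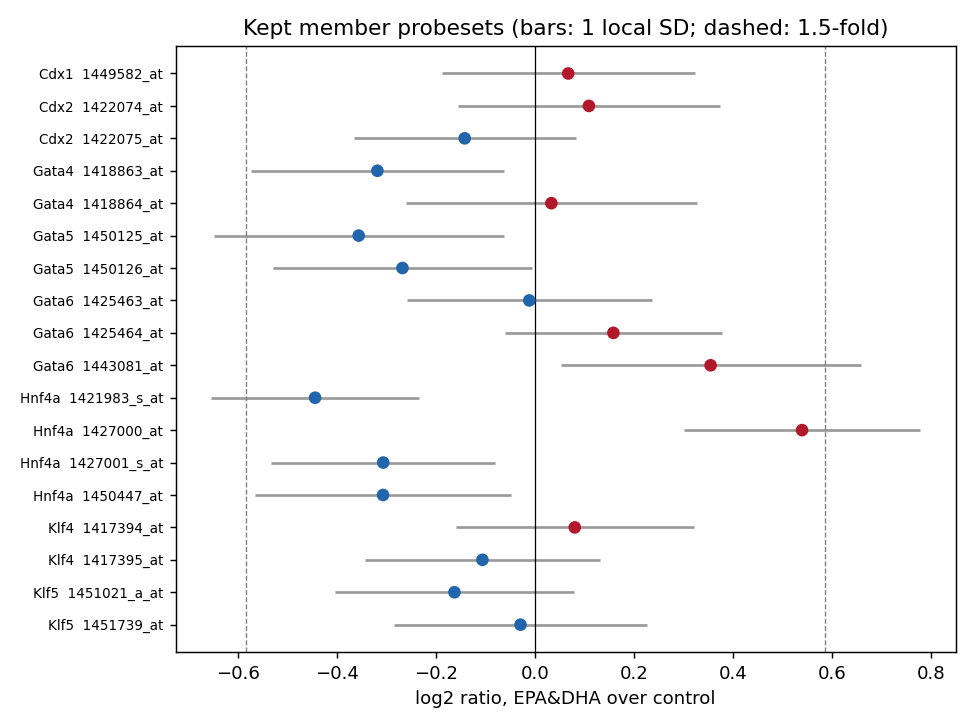
Log2 ratio of EPA&DHA over control (x axis) for the 18 kept probesets, red above 0 and blue below, with bars of 1 local SD on each side; dashed lines mark 1.5-fold. All points lie between the dashed lines, from -0.44 to 0.54, and both extremes belong to Hnf4a.

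**Figure D3:**
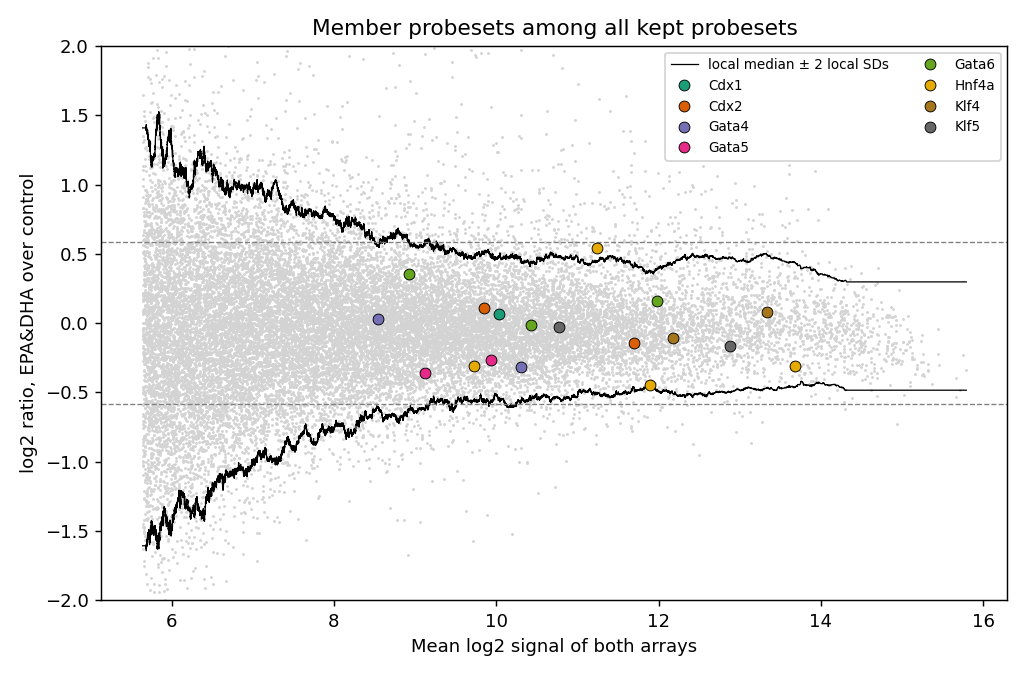
Log2 ratio of EPA&DHA over control (y axis, limited to 2 on either side) against mean log2 signal (x axis) for all 24461 kept probesets (grey) and those of the 8 genes (coloured circles). Black lines enclose 2 local SDs around the local median and dashed lines mark 1.5-fold; 1 circle, of Hnf4a, lies outside the black lines.

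Other members of the same families were measured for 14 of 20 listed genes. Of these, 1 was at least 1.5-fold higher and 0 lower, where 6.26% of all genes were higher and 8.00% lower, and their median log2 ratio was 0.09. The higher one was Klf15, a factor known for its response to fasting and glucocorticoids, with 309.3 on EPA&DHA and 174.9 on control, 1.77-fold higher with a local SD of 0.38. At the low end stood Klf2, a factor of endothelium and lymphocytes, at -0.26. Hnf4g, the close relative of Hnf4a in the intestine, was looked up after its values had been seen. On its brightest probeset, 1450518_at, it had 6257 on EPA&DHA and 6330 on control, a log2 ratio of -0.02. On 1460127_at it had 3748 on EPA&DHA and 2094 on control, 1.79-fold higher. On 1422182_at it had 3504 on EPA&DHA and 2267 on control, 1.55-fold higher. Like Hnf4a, Hnf4g gave values that depend on the probeset, so its count as a gene that was not 1.5-fold apart rests on the brightest one.

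Among 14 measured of 17 other transcription factors and cofactors of the epithelium, 1 was at least 1.5-fold higher and 1 lower, with a median of 0.09. Sox9, a factor of crypt and Paneth cells, was 1.80-fold higher on dim signals of 134.6 on EPA&DHA and 74.69 on control, with a local SD of 0.51, and its other kept probeset had a log2 ratio of 0.22. Its value of 0.85 fell short of 1.5-fold with an offset of 50 (0.57) and as the mean of kept probesets (0.54). Elf3, an ETS factor of differentiated epithelium, had 2290 on EPA&DHA and 3784 on control, 1.65-fold lower with a local SD of 0.24. Its log2 ratio of -0.72 was farther from 0 than that of any probeset of the 8 genes.

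Among the measured genes listed as dependent on CDX factors, HNF4A, KLF4 or KLF5, Egr1 was the only one 1.5-fold apart on its brightest probeset. No list of genes that depend on GATA factors was made. Values below 0 were also in the majority over all genes, at 6633 of 11756. Of 10 measured genes that depend on CDX factors, 0 were 1.5-fold apart in either direction, 8 were below 0 and the median log2 ratio was -0.14. The highest was Heph, a ferroxidase for iron export, at 0.19, and the lowest Mep1a, a brush border protease, at -0.45. On a dimmer probeset, 1455431_at, the glucose transporter Slc5a1 had 20716 on EPA&DHA and 12383 on control, 1.67-fold higher, whereas its brightest was at -0.10. Of 11 measured genes that depend on HNF4A, again 0 were 1.5-fold apart, 10 were below 0 and the median was -0.26. The lowest was Cdhr5, a cadherin of the brush border, with 16416 on EPA&DHA and 24392 on control, 1.49-fold lower with a local SD of 0.20. At the top was Apob, the structural protein of chylomicrons, at 0.04 on its brightest probeset and -0.50 on the other. Ttr, a carrier of thyroid hormone and retinol, was at -0.20 on its brightest probeset and 0.64 on 1455913_x_at. Of 11 measured genes that depend on KLF4 or KLF5, 1 was at least 1.5-fold lower and 0 higher, with a median of -0.19. This was Egr1, an immediate early gene, with 381 on EPA&DHA and 576 on control, a log2 ratio of -0.60. It fell short of 1.5-fold in 4 of 10 alternatives, at -0.56 after centring on the median, -0.57 after loess correction, -0.54 with an offset of 50 and -0.57 with an offset of the 25th percentile. Cdkn1b, a cell cycle inhibitor, was highest at 0.45. Odc1, the first enzyme of polyamine synthesis, was at 0.26 on its brightest probeset and 1.05 on 1437711_x_at, 2.07-fold higher. Some genes stand in more than 1 of these lists. The medians depended on the scaling, and after quantile normalization they were -0.03 for the CDX, -0.08 for the HNF4A and -0.08 for the KLF list, with 7, 9 and 7 genes below 0. After loess correction the medians of these lists were -0.08, -0.22 and -0.14.

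Of 9 measured markers of the epithelium itself, 0 were 1.5-fold apart and 8 were below 0, with a median of -0.19 and a summed signal of 213352 on EPA&DHA and 243685 on control. This median was -0.03 after quantile normalization and -0.14 after loess correction. As 5 of the 9 (Alpi, Cdh17, Fabp2, Krt20 and Vil1) also stand in the lists of dependent genes, the medians are not independent. On their brightest probesets all 7 goblet cell markers were below 0, from -0.39 to -0.17, with a median of -0.31. Of them 2, Muc2 and Tff3, are shared with those lists too. A dimmer kept probeset of Agr2 had 785 on EPA&DHA and 304.4 on control, 2.58-fold higher. One of Clca1 had 209.6 on EPA&DHA and 399.6 on control, 1.91-fold lower. With the mean of kept probesets 1 goblet cell marker was above 0 and 6 were below. A smaller share of epithelial or goblet cells and less RNA per cell cannot be told apart in pooled tissue, and their part in the values of the dependent genes was not tested.

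Genes of the gut regions were near even, with an exception in each list. Of 11 measured genes of duodenum and jejunum, 1 was at least 1.5-fold higher and 0 lower, with a median of -0.09, or 0.03 after quantile normalization. S100g, the calcium binding protein calbindin-D9k, had 1985 on EPA&DHA and 779.2 on control, 2.55-fold higher with a local SD of 0.26. Lct, the lactase of the proximal gut and a known GATA4 and CDX2 target, had a log2 ratio of -0.09, and the pancreatic and duodenal factor Pdx1 was lowest at -0.43. Of 9 genes of the ileum, all measured, 1 was at least 1.5-fold lower and 0 higher, with a median of 0.06, or -0.10 when probesets with the suffix _s_at, _x_at or _a_at were set aside. Fgf15, the ileal hormone that bile acids induce, had 55.42 on EPA&DHA and 451.9 on control, 8.15-fold lower. Its log2 ratio was -3.03, and -2.25 with an offset of 50, as the EPA&DHA signal stands close to the level of the filter. The other ileal genes lay between -0.40 and 0.18, and among them the bile acid transporter Slc10a2 was at 0.06 and the bile acid binding protein Fabp6 at 0.08. Ileal genes as a group therefore did not share the value of Fgf15.

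Genes of other organs were checked because CDX2 keeps gastric genes off and because GATA4, GATA6 and HNF4A also act in the pancreas. Of 10 stomach genes, 3 were measured. Atp4b, a subunit of the gastric proton pump, had a dim signal of 106.7 on EPA&DHA and 32.72 on control, and passed the filter through the EPA&DHA array. Its log2 ratio was 1.71, and 0.92 with an offset of 50. Its partner Atp4a was at -0.21 and Tff1 at 0.12, both within 1 local SD of 0. With no filter 5 of the 10 were at least 1.5-fold higher and 1 lower, with a median of 0.40. Among the dim ones, Gkn2 had 86.1 on EPA&DHA and 18.65 on control, Tff2 had 69.68 on EPA&DHA and 17.03 on control, and Gkn1 had 53.83 on EPA&DHA and 6.866 on control on the brighter of its probesets. The control signals of Gkn1, Gkn2 and Tff2 were well under the level of the filter. On its other probeset Gkn1 had 14.21 on EPA&DHA and 19.07 on control, and Muc5ac had 6.032 on EPA&DHA and 14.89 on control. With no filter 6 of the 10 stomach genes were above 0 and 4 below. Over all 45037 probesets without the filter, 8436 were at least 1.5-fold higher and 10402 lower. Of 6 colon genes, 1 was measured, Aqp8, at 0.47 with a local SD of 0.47. In contrast, all 7 measured of 9 exocrine pancreas genes were at least 1.5-fold higher, with log2 ratios from 1.21 to 2.70 and a median of 1.95, and their summed signal was 11538 on EPA&DHA and 3074 on control. Ptf1a, the transcription factor of acinar cells, was dim, with 35.01 on EPA&DHA and 32.04 on control. Pancreatic enzyme RNA thus differed between the pools, and its part in the values of Gata4, Gata6 and Hnf4a was not tested. Smooth muscle markers, 5 of 6 measured, were all below 0 with a median of -0.21. All but Acta2 were dim, with local SDs from 0.49 to 0.62. The farthest from 0 was Des, at -0.55 with a local SD of 0.53. Of 6 measured lymphoid markers 1 was at least 1.5-fold higher, the T cell receptor subunit Cd3e, and 2 lower, the T cell coreceptor Cd8a and the B cell receptor subunit Cd79a. These calls were not firm, since Cd3e fell short of 1.5-fold with both offsets and Cd79a with the offset of 50. That of Cd8a rests on its brightest probeset, at -0.82, whereas the other kept ones were at -0.26, -0.52 and 0.02. Of 6 measured crypt markers 1 was at least 1.5-fold higher on its brightest probeset, the crypt base gene Olfm4. It had 5903 on EPA&DHA and 3587 on control. Ascl2, Lgr5, Top2a, Mki67 and Cdk1 were at -0.38, -0.39, 0.08, -0.13 and 0.03 on their brightest probesets. On a dimmer kept probeset, however, Ascl2 had 120.1 on EPA&DHA and 24.16 on control, 4.97-fold higher with a local SD of 0.65. Dimmer kept probesets of Lgr5 and Top2a were 2.17-fold and 1.85-fold higher, with local SDs of 0.60 and 0.51. The control signals of these Ascl2 and Lgr5 probesets, 24.16 and 45.61, were under the level of the filter. Both passed it through the EPA&DHA array.

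**Figure D4:**
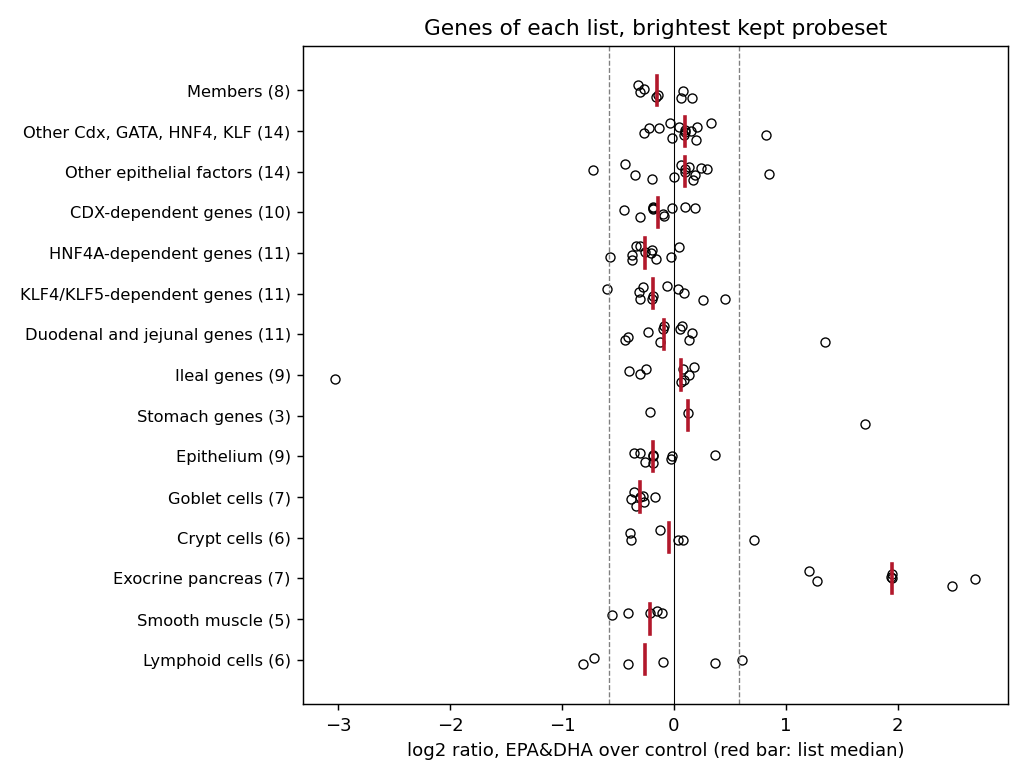
Log2 ratio of EPA&DHA over control (x axis) of each measured gene (circles) in 15 lists; brackets give how many genes were measured, red bars are list medians and dashed lines mark 1.5-fold. The 8 members lie between -0.32 and 0.16, while the exocrine pancreas genes all lie above the upper dashed line and Fgf15 stands far to the left among the ileal genes.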

How the data were processed

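The authors summarized the arrays (Affymetrix MOE430_2) with MAS 5.0 and deposited 1 signal intensity per probeset on a linear scale. The 2% trimmed mean was 500.0 on each array. Detection calls were not used here. The table held 45101 probesets, and 64 control probesets were set aside. Gene names came from the platform annotation, updated through gene identifiers, and 34945 probesets named 1 gene. Both arrays were brought to the same trimmed mean, log2 ratios of EPA&DHA over control were taken, and probesets with a geometric mean signal of at least 50 were kept (54.3%). The brightest kept probeset represented a gene. The local SD was the scaled median absolute deviation over the 500 probesets nearest in signal, and distances in local SDs were counted after the values had been seen. Members and lists were chosen with earlier results of these data known. Named genes were all members and, in each list, those 1.5-fold apart, or else the highest and the lowest. Some other genes were named outside this rule. Among them, Slc5a1, Ttr, Odc1, Agr2, Clca1, Ascl2, Lgr5 and Top2a were named for a dimmer probeset that was 1.5-fold apart. Dimmer probesets were not reported in this way for every list. The calculation was tested on simulated data. Log2 signals of the arrays correlated across kept probesets with r = 0.976, and probesets are not replicates. The Gapdh ratio of 3' to 5' signal was 0.793 on EPA&DHA and 0.932 on control. That of Actb was 1.16 on EPA&DHA and 1.22 on control. Alternatives changed the scaling, the offset, the filter and the choice of probeset. The number of arrays, 1 per diet, limits the precision. Calculations ran in pandas 2.3.3 and numpy 2.4.6 under Python 3.11.15, with loess from statsmodels 0.14.6 and plots from matplotlib 3.10.9. Sequences came from RefSeq tables for GRCm38.p6.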

Additional observations from a re-analysis of the deposited data

How the results depend on the processing

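In all 10 alternatives 0 of the 8 member genes were 1.5-fold apart, and the median of the members ran from -0.17 to 0.02, above 0 only when probesets with a suffix (_s_at, _x_at or _a_at) were set aside. The value of Hnf4a ran from -0.32 to 0.54 and was above 0 only in that setting, while Klf4 fell just below 0 (-0.01) with the mean of kept probesets. Among single probesets, 1425463_at of Gata6 changed sign in 3 alternatives and 1451739_at of Klf5 in 1, all close to 0. Over all probesets, 1988 were at least 1.5-fold higher and 2200 lower, and the counts at 1.5-fold were 1090 and 1024 with an offset of 50, 8436 and 10402 with no filter, and 563 and 330 among kept probesets brighter than their median. At 2-fold they were 232 higher and 105 lower with an offset of 50, 375 and 314 with an offset of 18.3 (the 25th percentile), 5522 and 6857 with no filter, and 152 and 32 among those brighter than the median. The share of 1.5-fold differences that were higher was 47.5%, and 63% among those brighter than the median. The median of the crypt markers was -0.05, and 0.42 with the mean of kept probesets. That mean takes in the dimmer probesets of Ascl2, Lgr5 and Top2a. The filters change how many dim probesets enter, and an offset shrinks the ratios of dim ones; the other causes were not tested. No paired analysis was possible because each diet had 1 array.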
